A study of Mus musculus with 12 samples.

Results

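The HoxD cluster with its neighbour Evx2 was followed in mouse embryonic fibroblasts (MEFs) as the window on chromosome 2 from 74480000 to 74620000 of mouse build mm9, 140 kb long, and every listed peak that overlapped it was taken. This gave 121 of the 128880 peaks in 8 lists, 70 of 68085 for trimethylated lysine 27 of histone H3 (H3K27me3) and 51 of 60795 for trimethylated lysine 4 (H3K4me3). The 10 genes named for the window are Evx2, Hoxd13, Hoxd12, Hoxd11, Hoxd10, Hoxd9, Hoxd8, Hoxd3, Hoxd4 and Hoxd1. In the RefSeq annotation of another build, GRCm38.p6, all 10 follow each other in this order, with Evx2 and Hoxd13 at the low-coordinate end and Hoxd1 at the high-coordinate end. No mm9 annotation was used, so that no peak is assigned to a single gene, exon or intron. Places along the cluster are given in kb from the window's lower end, the Evx2 side.

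The cells were primary cultures of a hybrid 129/B6 strain background, profiled by chromatin immunoprecipitation with sequencing (ChIP-seq), and an age or stage of the embryos is not used here. Each mark was measured in 4 conditions. These were lincRNA-p21-/- (KO) MEFs exposed for 24 h to doxorubicin, which damages DNA (0.5 mM as labelled), KO MEFs given a mock treatment, and wild-type lincRNA-p21+/+ (WT) MEFs given doxorubicin or mock. LincRNA-p21, a noncoding transcript under p53 control, is set by the title of the series against the expression of Polycomb target genes. Each mark and condition had 1 library, so that no difference below has a replicate check, and no p-value was computed. Neither the deletion nor fibroblast identity can be checked from these peak lists without an mm9 annotation.

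Hox genes encode homeodomain transcription factors that give cells their position along the body axis, and their order on the chromosome follows the order in which they are used. Hoxd9 to Hoxd13 belong to the posterior genes, which act in limb, digit and urogenital patterning, while Hoxd1, Hoxd3 and Hoxd4 belong to the anterior end. Evx2, an even-skipped type homeobox gene, is expressed with the posterior genes in the limb. Polycomb repressive complex 2 lays down H3K27me3 over silent Hox genes in wide domains, and H3K4me3 marks promoters that are active or poised. Fibroblasts keep a memory of their body position in which part of a Hox cluster is active and the rest carries H3K27me3.

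Promoter sequences of the cluster differ widely in CG dinucleotides, the sites bound by proteins that bring H3K4 methylation and Polycomb complexes to CpG islands. Shown here are Hoxd13 and Hoxd1, from the ends of the Hox row, and Hoxd4, which is poor in CG, each as the 250 bases before the RefSeq start, with every CG in capitals. They are from RefSeq, build GRCm38.p6, plus strand, at chr2:74667975-74668224 for Hoxd13, chr2:74721728-74721977 for Hoxd4 and chr2:74762730-74762979 for Hoxd1. Positions of that build were not converted to mm9 and so are not laid over the peaks here.
Hoxd13: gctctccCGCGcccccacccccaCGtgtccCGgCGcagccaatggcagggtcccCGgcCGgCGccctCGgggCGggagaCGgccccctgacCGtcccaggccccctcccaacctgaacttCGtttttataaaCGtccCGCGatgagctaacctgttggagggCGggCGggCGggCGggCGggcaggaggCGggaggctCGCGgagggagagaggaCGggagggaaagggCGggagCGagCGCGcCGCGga
Hoxd4: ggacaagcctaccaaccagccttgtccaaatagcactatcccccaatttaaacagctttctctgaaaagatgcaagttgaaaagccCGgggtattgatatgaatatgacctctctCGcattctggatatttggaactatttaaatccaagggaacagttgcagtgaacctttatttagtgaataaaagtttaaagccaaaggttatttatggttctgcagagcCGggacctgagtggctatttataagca
Hoxd1: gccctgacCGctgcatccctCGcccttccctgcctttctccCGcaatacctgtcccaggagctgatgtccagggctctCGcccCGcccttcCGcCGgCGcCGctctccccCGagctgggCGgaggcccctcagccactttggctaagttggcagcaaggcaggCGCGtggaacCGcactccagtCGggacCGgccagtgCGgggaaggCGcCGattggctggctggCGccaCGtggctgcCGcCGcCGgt
The Hoxd13 stretch held 31 CG, more than 94.8% of the 32851 RefSeq promoter entries, and the Hoxd1 stretch held 24. The Hoxd4 stretch held 3 and the Hoxd8 stretch 6, against a median of 6 over all entries. All 10 genes had an entry, and Hoxd11 had 2, with 2 and 20 CG. Of these 11 entries 8 lay above the median of all entries. The letters CG read the same on both strands, and 92.1% of all entries held at least 1.

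The H3K27me3 domain of the cluster was found in all 4 lists and ended sharply on the Evx2 side. The outermost H3K27me3 peaks of the window began between 74480481 and 74481348. Below the window the next H3K27me3 peak was 342908 bp away in KO doxorubicin, 423034 bp in KO mock, 341862 bp in WT doxorubicin and 342983 bp in WT mock cells. On the Hoxd1 side the last peak ended at 74608953, 74609041, 74616179 and 74608107 in the same 4 conditions, and further peaks followed 4733 to 30297 bp beyond the window. H3K4me3 had its nearest neighbours outside the window 62204 to 62303 bp below it and 43112 to 43493 bp above it in the 4 lists.

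Depth per library is unknown, because the lists give no read counts. In the whole lists H3K27me3 covered 35.9 to 48.0 Mb and H3K4me3 27.1 to 33.4 Mb, with WT mock cells at the top for both marks, so that each difference below is given beside the ratio of the whole lists. The score is the authors' value for a peak, -10 log10 of the peak caller's p-value. Scores of 1 region are printed for several lists but should be read within each list, since the lists differ in scale. The median H3K4me3 score was 2141 in the KO doxorubicin list, 1162 in KO mock, 1526 in WT doxorubicin and 1512 in WT mock. Score cutoffs of 100 and 300 were applied to all lists alike. No list held a score under 80. The KO mock H3K27me3 library stood apart in the cluster by a gap described below. Both comparisons that use it share it, and the KO doxorubicin against WT doxorubicin comparison is free of it.

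H3K27me3 lay over most of the cluster in every condition, and its length there differed most between the mock-treated libraries. It covered 101.7 kb (72.65% of the window) in KO doxorubicin cells, in 17 peaks with a median score of 244.8. In KO mock cells it covered 80.3 kb (57.4%), in 15 peaks with a median score of 768.6. In WT doxorubicin cells it covered 111.9 kb (79.9%), in 25 peaks with a median score of 226.6. In WT mock cells it covered 122.9 kb (87.8%), in 13 peaks with a median score of 436.3. KO mock was thus the shortest of the 4 and WT mock the longest, and 65.75 kb (47.0% of the window) was covered in all 4 lists. The 3 widest peaks measured 48.2, 8.81 and 7.42 kb in KO doxorubicin, 14.9, 13.6 and 8.27 kb in KO mock, 32.6, 11.5 and 9.48 kb in WT doxorubicin, and 26.5, 24.8 and 18.2 kb in WT mock cells.

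**Figure D1:**
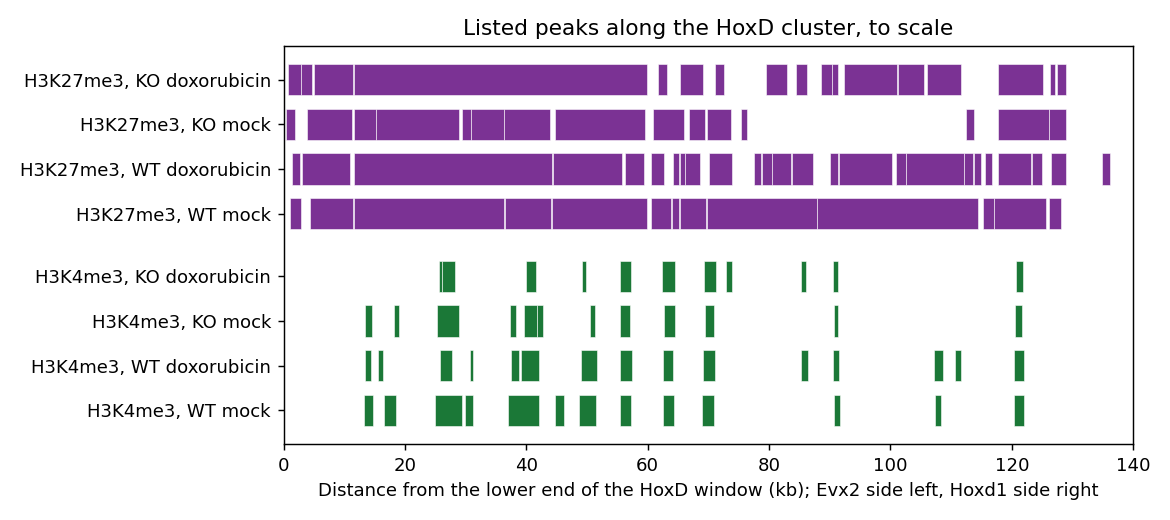
Listed peaks of both marks in the 4 conditions along the HoxD window; the x axis is the distance in kb from the window's lower end (Evx2 side left) and each bar is 1 peak drawn to scale. H3K27me3 is nearly unbroken over the lower 60 kb in the 4 lists, and the KO mock list has no peak for 36.02 kb further along.

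The lower 60 kb, on the side of Evx2 and the posterior Hoxd genes, was almost filled with H3K27me3 in all 4 lists. Peaks covered 97.6% of it in KO doxorubicin, 92.15% in KO mock, 94.4% in WT doxorubicin and 94.95% in WT mock cells. A single KO doxorubicin peak from 74491640 to 74539813 spanned most of it. The highest-scoring H3K27me3 peak of the KO mock list in the window, with a score of 2530.77, lay here from 74516395 to 74523976. That of the WT mock list, with 2007.12, lay at nearly the same place, from 74516417 to 74524061. In the KO and WT doxorubicin lists the highest score, 2035 and 1922.32, belonged to a peak further out, from 74485006 to 74491431 in KO and from 74483033 to 74490967 in WT cells.

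Between 60 and 80 kb H3K27me3 was broken up in 3 of the 4 lists. It covered 35.6% of these 20 kb in KO doxorubicin, 63.0% in KO mock, 62.2% in WT doxorubicin and 95.97% in WT mock cells. Doxorubicin lists were thus lower than the mock list of the same genotype, and KO lists lower than the WT list of the same treatment. The largest uncovered run of the KO doxorubicin list that had peaks on both sides lay here, 6.90 kb from 74552533 to 74559433, and WT mock peaks covered all of it.

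Between 80 and 110 kb the KO mock list had no H3K27me3 at all, while the other lists were largely covered. The shares were 82.65% in KO doxorubicin, 0% in KO mock, 87.5% in WT doxorubicin and 99.9% in WT mock cells. The whole KO mock gap ran from 74556370 to 74592385, 36.02 kb, and other lists covered 74.8% of it in KO doxorubicin, 85.65% in WT doxorubicin and 99.9% in WT mock cells. Peak numbers run in order along the list and 1 number is skipped in this gap. If skipped numbers stand for peaks under the score filter, at most 1 such peak lay there. Of the KO doxorubicin peaks inside the gap, the strongest was 8.81 kb wide from 74572316 to 74581129 with a score of 865.83. Stretches of at least 5 kb that were under peaks in 3 lists and free of them in the fourth were 7.92 kb from 74572316 to 74580237 and 5.46 kb from 74586111 to 74591569, and KO mock was the fourth list in both.

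The last 30 kb held the Hoxd1 end of the domain and its border. H3K27me3 covered 37.5% of it in KO doxorubicin, 41.4% in KO mock, 55.1% in WT doxorubicin and 55.9% in WT mock cells. A strong peak was present here in all 4 lists, from 74597762 to 74605186 with a score of 1380.23 in KO doxorubicin and from 74597798 to 74606068 with 2190.51 in KO mock cells. In WT doxorubicin cells it ran from 74597764 to 74603157 with a score of 1113.09, and in WT mock cells from 74597149 to 74605707 with 1798.5. Between the gap and this peak the KO mock list held a single peak of 1.30 kb with a score of 178.94, from 74592386 to 74593685.

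**Figure D2:**
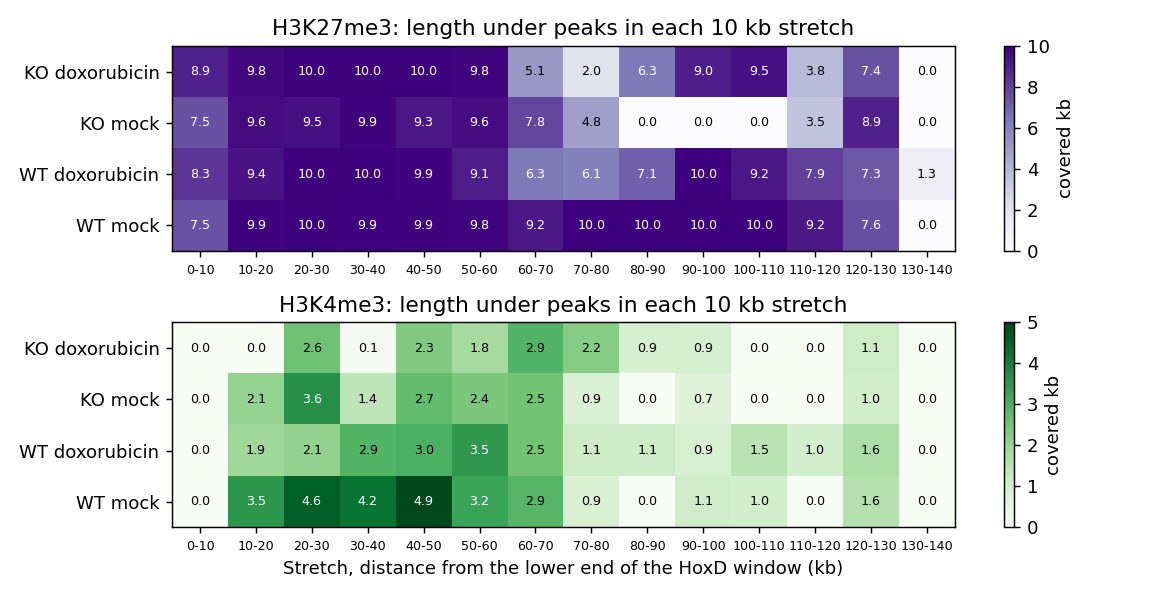
Length under peaks in each of the 14 stretches of 10 kb, for H3K27me3 (upper panel) and H3K4me3 (lower panel); rows are conditions, columns run from the Evx2 side to the Hoxd1 side, and the colour and the number in each cell give covered kb. In KO mock cells H3K27me3 is at 0 kb in the stretches between 80 and 110 kb.

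KO was compared with WT in mock-treated cells, without added damage. With 1 library on each side, genotype cannot be told apart from culture or library. H3K27me3 in the cluster was 42.6 kb shorter in KO mock than in WT mock cells, a ratio of 0.653. Over the whole lists the ratio was 0.756, and 34.7% of 1467 windows of the same length were covered at least 1.5-fold less in KO mock cells, as this one was. Of the 1 kb bins covered in either list, 1.56% were covered only in KO mock and 35.2% only in WT mock cells, against 13.6% and 34.3% over the genome. The share of bins found only in WT mock cells was therefore near that of the genome. Of the 45.1 kb under WT mock and not KO mock peaks, 36.0 kb lay in the gap. With an overlap of 1 bp, 0 H3K27me3 peaks were gained in KO mock cells (25.5% of the whole list was) and 1 was lost (36.3% of the whole WT mock list was), since wide WT mock peaks crossed the edges of the gap. A peak is called gained where the first-named library has it without any overlapping peak in the second, and lost where the reverse holds. The median H3K27me3 peak width was 2113 to 7099 bp in the window and 1310 to 2015 bp in the whole lists. Wide peaks meet an overlapping peak more readily. Here and in the H3K27me3 comparisons below, the shares of the whole lists and of genome bins are therefore no matched background.

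The cluster was also set beside the other long H3K27me3 domains of the genome. Joining the H3K27me3 peaks of the 4 lists less than 3 kb apart gave 75 other domains of at least 50 kb and a HoxD domain of 128.6 kb. In it KO mock peaks covered 62.5% and WT mock peaks 95.6%, a difference of -33.1 percentage points. The other domains had a median of -11.15 points and ran from -30.8 to 51.96 points. None of the 75 thus lay below HoxD in points. From the lowest to the highest of the 4 lists, the covered share spanned 33.1 points in HoxD and up to 58.8 points in another domain. As a ratio of KO mock to WT mock share HoxD stood at 0.653, and 2 of the 75 lay below it, the lowest at 0.567. In WT mock cells 74 of the 75 others were covered less fully than HoxD, which leaves them less room for a difference in points.

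In KO cells doxorubicin was compared with mock, with the KO mock list and its gap as the reference. With 1 library on each side, treatment cannot be told apart from culture or library. H3K27me3 in the cluster was 21.4 kb longer in KO doxorubicin than in KO mock cells, a ratio of 1.27, while the whole lists had a ratio of 0.990. Windows covered at least 1.5-fold longer in KO doxorubicin cells made up 8.84% of 1222, and this one was not among them. Of the covered 1 kb bins 28.45% were covered only in KO doxorubicin and 9.48% only in KO mock cells, against 23.9% and 24.4% over the genome. There were 7 gained peaks, all inside the KO mock gap, beside 35.3% of the whole KO doxorubicin list, and 2 lost peaks, beside 34.1% of the KO mock list. The 4 gained peaks with a score of at least 300 included the peak of 8.81 kb above, a peak from 74581151 to 74585593 with a score of 767.62 and a peak from 74586111 to 74591569 with 683.81. The fourth, from 74559434 to 74563023, scored 358.91. In the HoxD domain the covered share was 16.65 points higher in KO doxorubicin than in KO mock cells. The other domains had a median of 0.230 points and ran from -37.8 to 25.3 points, and 73 of 75 lay below HoxD.

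Doxorubicin against mock in WT cells gave a smaller difference of the other sign. H3K27me3 in the cluster was 111.9 kb in WT doxorubicin and 122.9 kb in WT mock cells, 11.0 kb shorter, a ratio of 0.910. With peaks less than 3 kb apart joined the lengths were 125.3 kb and 127 kb, and WT doxorubicin minus WT mock was -1.73 kb. The whole lists had a ratio of 0.812, and 26.7% of 1510 windows were covered at least 1.5-fold less in WT doxorubicin cells. Bins covered only in WT doxorubicin made up 2.33% and bins covered only in WT mock cells 12.4%, against 16.5% and 31.8% over the genome. The sole gained peak was 1.31 kb wide with a score of 124.62, beyond the Hoxd1-side border from 74614866 to 74616179, and 0 peaks were lost, beside 29.3% and 35.4% of the whole lists.

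KO against WT in doxorubicin-treated cells, which leaves out the KO mock library, gave a small difference. H3K27me3 was 10.15 kb shorter in KO doxorubicin than in WT doxorubicin cells, with a ratio of 0.909 in the cluster and 0.922 over the whole lists. With peaks of a score of at least 100, KO doxorubicin minus WT doxorubicin was -5.58 kb. Windows covered at least 1.5-fold less in KO doxorubicin cells made up 13.4% of 1247, and this one was not among them. Bins covered only in KO doxorubicin made up 4.24% and bins covered only in WT doxorubicin cells 11.0%, against 21.2% and 27.1% over the genome. No peak was gained, beside 32.2% of the whole list, and 6 were lost, beside 35.3% of the WT doxorubicin list. These whole-list shares are not matched for peak width. The 6 lost peaks were 1.01 to 1.39 kb wide with scores of 90.66 to 161.32. In the HoxD domain the difference was -6.87 points, beside a median of -4.62 points over the other domains.

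**Figure D3:**
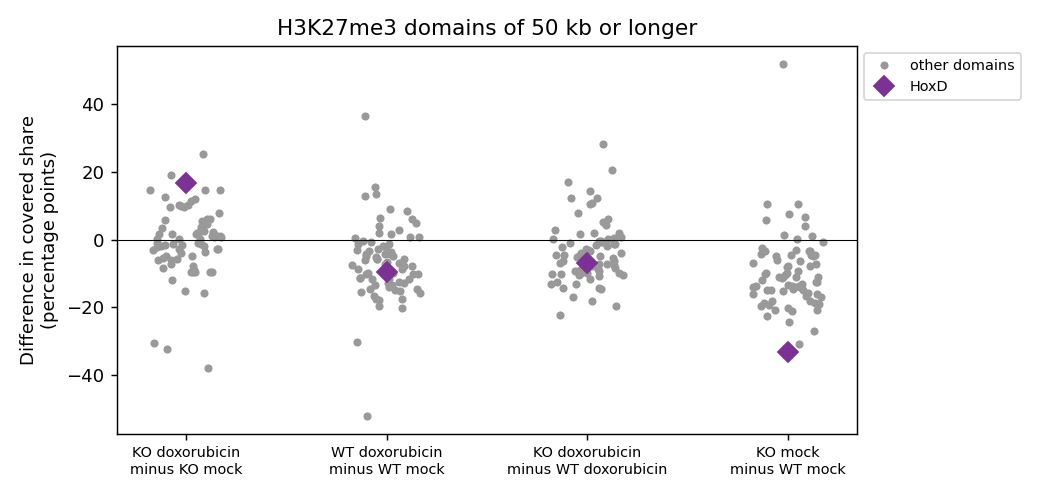
Difference in the H3K27me3-covered share (percentage points) for the HoxD domain (diamond) and 75 other domains of at least 50 kb (dots, spread sideways for legibility) in 4 comparisons. HoxD lies at -33.1 points for KO mock minus WT mock, below all the others, and at 16.65 points for KO doxorubicin minus KO mock.

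H3K4me3 sat in short islands, 9 of 17 of them in the lower 60 kb on the side of Evx2 and the posterior genes. In every condition it covered less of the cluster than H3K27me3 did. It covered 14.9 kb (10.6% of the window) in KO doxorubicin cells, in 11 peaks with a median score of 345. In KO mock cells it covered 17.3 kb (12.4%), in 12 peaks with a median score of 211.2. In WT doxorubicin cells it covered 23.1 kb (16.5%), in 15 peaks with a median score of 361.5. In WT mock cells it covered 27.8 kb (19.85%), in 13 peaks with a median score of 387.1. Both KO lists were below both WT lists. By the standard of their lists these peaks were weak, and 1, 0, 2 and 3 of them in the same 4 conditions reached the median score of the list.

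Joining H3K4me3 peaks over the 4 lists gave 17 regions, numbered here from the Evx2 side. Of these 8 were in all 4 lists, 1 was in 3, 4 were in 2 and 4 were in 1. The 8 shared regions were numbers 4, 6, 8, 9, 10, 11, 14 and 17. Beyond region 14, which ended at 91.7 kb, region 17 near the Hoxd1 end, from 74600386 to 74602028, was the sole region in all 4 lists.

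The regions that led the window by score were not the same in each list. Region 4, from 74505004 to 74509454, scored 417.78 in KO doxorubicin, 832.7 in KO mock, 918.22 in WT doxorubicin and 1675.75 in WT mock cells. It was the fourth of 10 regions by score in KO doxorubicin, the second of 10 in KO mock, the sixth of 14 in WT doxorubicin and the second of 13 in WT mock cells. Its covered length was 2577 bp, 3638 bp, 2082 bp and 4451 bp in the same order, so that it was shorter in each doxorubicin list than in the mock list of its genotype.

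Region 6, from 74517060 to 74522781, lies in the same lower part of the cluster. Its highest score was 345.04 in KO doxorubicin, 439.22 in KO mock, 1368.92 in WT doxorubicin and 1860.15 in WT mock cells. It led the window in WT mock cells and was the sixth in KO doxorubicin, the fifth in KO mock and the third in WT doxorubicin cells. Peaks covered 1701 bp of it in KO doxorubicin, 4086 bp in KO mock, 4288 bp in WT doxorubicin and 5019 bp in WT mock cells.

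Regions 9, 10 and 11, between 55.4 and 71.2 kb, took the leading places in KO doxorubicin cells. Region 10, from 74542350 to 74544562, scored 2616.02 in KO doxorubicin, where it was above 57.2% of the whole list, and 1058.96 in KO mock cells, where it was above 46.7%. In WT cells it scored 1726.23 with doxorubicin and 1558.36 with mock. It held the first place in the window in both KO lists, the second in WT doxorubicin and the third in WT mock cells.

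Region 11, from 74549002 to 74551198, scored 1624.42 in KO doxorubicin, 820.13 in KO mock, 1232.68 in WT doxorubicin and 644.42 in WT mock cells. Region 9, from 74535401 to 74537368, scored 1533.27, 562.87, 2195.1 and 706.19 in the same order and led the window in WT doxorubicin cells. Within both doxorubicin lists regions 9 and 10 outscored regions 4 and 6, and in WT mock cells regions 4 and 6 outscored regions 9, 10 and 11. In KO mock cells the order was mixed, with region 10 ahead of region 4 and region 4 ahead of regions 11 and 9. These groups of regions were picked after their scores were seen.

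**Figure D4:**
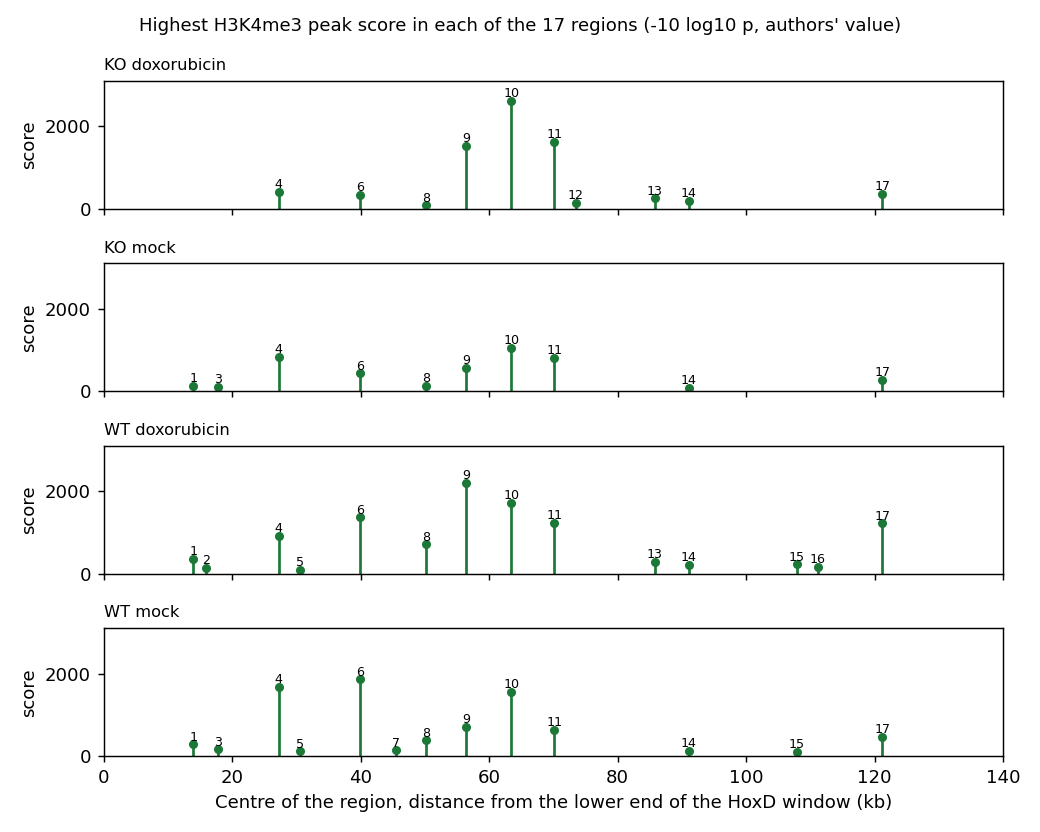
Highest H3K4me3 peak score in each of the 17 numbered regions, by condition (panels) and by distance of the region's centre from the window's lower end in kb; the score is the authors' -10 log10 p and should be read within a panel. Regions 10, 11 and 9 lead in KO doxorubicin cells and regions 6 and 4 in WT mock cells.

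The covered length of H3K4me3 was also taken by part of the cluster. In the lower 60 kb H3K4me3 covered 6.78 kb in KO doxorubicin, 12.2 kb in KO mock, 13.3 kb in WT doxorubicin and 20.4 kb in WT mock cells. Between 60 and 80 kb it covered 5.16 kb, 3.35 kb, 3.63 kb and 3.74 kb in the same order, with KO doxorubicin at the top. From 80 to 110 kb the values were 1.86 kb, 0.744 kb, 3.49 kb and 2.06 kb, and in the last 30 kb 1.08 kb, 1.04 kb, 2.63 kb and 1.56 kb. The differences between lists thus lay mostly in the lower 60 kb.

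H3K4me3 in the cluster was shorter with doxorubicin than with mock in both genotypes. In KO cells it was 2.44 kb shorter, a ratio of 0.859, while the whole lists had a ratio of 1.08. Of the covered bins 21.7% were covered only in KO doxorubicin and 34.8% only in KO mock cells, against 12.4% and 5.80% over the genome. There 3 of 11 peaks were gained and 5 of 12 lost, beside 8.84% and 2.69% of the whole lists, which are not matched for score. The 5 lost peaks scored 100.55 to 144.42, close to the score filter, and the 3 gained ones 90.14 to 259. In WT cells it was 4.71 kb shorter with doxorubicin, a ratio of 0.831 beside 0.961 for the whole lists. Bins covered only in WT doxorubicin made up 12.5% and bins covered only in WT mock cells 31.25%, against 7.56% and 11.0% over the genome. There 3 of 15 peaks were gained and 2 of 13 lost, beside 8.25% and 2.21% of the whole lists. The 2 lost peaks scored 143.97 and 167.65, and the 3 gained ones 136.73 to 286.43. Region 13, at 85.2 to 86.4 kb, was gained in both genotypes, with scores of 259 in KO doxorubicin and 286.43 in WT doxorubicin cells and no peak in either mock list. At least 1.5-fold shorter windows made up 0.500% of 400 in KO and 0.173% of 577 in WT cells, and this one passed that fold in neither.

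H3K4me3 in the cluster was also shorter in KO than in WT cells under both treatments. With doxorubicin it was 8.20 kb shorter in KO than in WT cells, a ratio of 0.645 beside 0.911 for the whole lists, and with peaks less than 3 kb apart joined the difference was -12.7 kb. Windows covered at least 1.5-fold less in KO doxorubicin cells made up 7.18% of 515, and this one was among them. Of those with at least 10 kb of H3K27me3 in all 4 lists, 17.8% of 118 were covered at least 1.5-fold less. Bins covered only in KO doxorubicin made up 12.0% and bins covered only in WT doxorubicin cells 40.0%, against 7.73% and 16.2% over the genome. Just 1 of 11 peaks was gained and 6 of 15 were lost, beside 4.41% and 11.9% of the whole lists. Neither these shares nor those of the bins are matched for score. Of the 6 lost peaks the strongest was region 1, from 74493361 to 74494385 with a score of 361.47 in WT doxorubicin cells. The nearest KO doxorubicin peak was 11279 bp away, and region 1 was present in the 3 other lists. The remaining lost peaks scored 103.51 to 229.16 in WT doxorubicin cells.

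With mock treatment H3K4me3 was 10.5 kb shorter in KO than in WT cells, a ratio of 0.623 beside 0.811 for the whole lists, and with peaks less than 3 kb apart joined the difference was -16.5 kb. At least 1.5-fold less was seen in 7.30% of 534 windows, this one included. Bins covered only in KO mock made up 6.67% and bins covered only in WT mock cells 40.0%, against 2.89% and 21.0% over the genome. None of 12 peaks was gained and 3 of 13 were lost, beside 1.94% and 9.32% of the whole lists, again not matched for score. The 3 lost peaks had scores of 104.26 to 143.97, close to the score filter.

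Nearly every H3K4me3 peak of the cluster lay at H3K27me3 of the same condition. In KO doxorubicin cells 10 of 11 peaks did, in KO mock cells 11 of 12, and in WT doxorubicin and WT mock cells all 15 and all 13. Over the whole lists 12.0%, 13.3%, 16.3% and 16.2% of H3K4me3 peaks did. H3K27me3 covered 72.65%, 57.4%, 79.9% and 87.8% of the window in the same order, and 1 shared bp was enough. The counts were thus largely set by the choice of a window rich in H3K27me3, and the whole lists are no matched background. Both marks in 1 list pair do not show both marks on the same chromosome copy, since the cells were a population.

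By length the overlap was less complete after doxorubicin. Bases under both marks came to 10.6 kb in KO doxorubicin, 16.2 kb in KO mock, 20.3 kb in WT doxorubicin and 27.5 kb in WT mock cells. This was 70.9%, 93.3%, 88.0% and 98.9% of the H3K4me3 length in the same order, lower with doxorubicin in each genotype. In KO doxorubicin cells the share was no higher than the 72.65% of the window under H3K27me3. In the other lists it was above the H3K27me3 share of the window. H3K4me3 without H3K27me3 measured 4.33 kb, 1.16 kb, 2.78 kb and 0.318 kb.

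Regions 10 and 11 held 73.7% of this length in KO doxorubicin, 35.7% in KO mock, 86.6% in WT doxorubicin and 100% in WT mock cells. In KO mock cells the rest, 744 bp, was region 14 in the gap. H3K27me3 covered 38.4% of region 10 in KO doxorubicin, 100% in KO mock, 35.6% in WT doxorubicin and 95.9% in WT mock cells. Of region 11 it covered 6.83% in KO doxorubicin, 78.65% in KO mock, 49.6% in WT doxorubicin and 89.6% in WT mock cells. At regions 4 and 6 H3K27me3 covered 100% in all lists except region 4 in KO mock cells, at 87.8%. Region 12, from 74552927 to 74553974, was found in KO doxorubicin cells alone, with a score of 145 and no H3K27me3 there, while the other lists had 80.6 to 100% H3K27me3 and no H3K4me3.

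**Figure D5:**
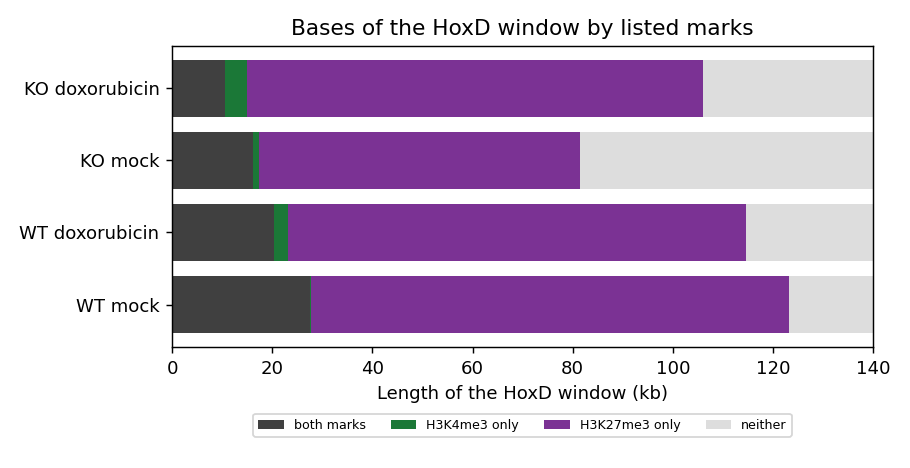
Bases of the 140 kb window by listed marks in each condition (rows); the x axis is length in kb and the colours are both marks, H3K4me3 only, H3K27me3 only and neither. H3K4me3 without H3K27me3 is longest in KO doxorubicin cells at 4.33 kb, and the uncovered part is longest in KO mock cells at 58.5 kb.

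The KO mock gap in H3K27me3 held almost no listed H3K4me3 either, but H3K4me3 was low in this part in every list. Between 80 and 110 kb it covered 6.19% in KO doxorubicin, 2.48% in KO mock, 11.6% in WT doxorubicin and 6.86% in WT mock cells. Each share was below that of the whole window. The sole KO mock H3K4me3 peak in the gap, region 14, was 744 bp long with a score of 87.89, near the score filter of 80. In the other lists region 14 scored 201.09 in KO doxorubicin, 217.93 in WT doxorubicin and 129.73 in WT mock cells. In all, the KO mock lists had neither mark over 58.5 kb of the window, against 34.0 kb in KO doxorubicin, 25.4 kb in WT doxorubicin and 16.8 kb in WT mock cells.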

How the data were processed

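The series held 12 samples, 8 ChIP libraries and 4 inputs; the peak lists of the 8 ChIP libraries were used, and reads and inputs were not analysed here. Per the labels' protocols, cells were fixed for 10 min in 1% formaldehyde and chromatin was sheared to fragments of 300 to 500 bp. The submitters' processing notes name Bowtie 0.12.7, MACS 1.4.2 and mm9. Per the file headers the score the authors deposited for each peak is -10 log10 of a p-value, so a higher score is a lower p; peaks were listed per library, not on pooled samples. Other settings are not given in the sources used here.

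Starts were taken to count from 0 and are printed counting from 1. Covered length is the number of bases of the window under at least 1 peak. A 1 kb bin counted as covered when at least 50% of it was under peaks. Windows of 140 kb tiled each chromosome up to its last listed peak and were compared where either list covered at least 10 kb. Alternatives were a score of at least 100, equal numbers of top peaks per list, joining peaks less than 3 kb apart, whole peak lengths, an overlap of 50% and sharing within 1 kb. The named peaks were the 3 highest-scoring H3K4me3 and the 3 widest H3K27me3 peaks of each list, and gained or lost peaks with a score of at least 300; further peaks and regions were picked after their values were seen. Members, lists and zones were chosen with earlier results of these data known. Bases of a peak are not independent, so no interval is printed; the 95% binomial intervals used to judge the alternatives cover counting error over 1 kb bins only. The interval rules were tested on simulated peaks, and 7 of 7 gave back the number put in. Gene order and promoters came from RefSeq tables, in which all 10 genes matched. Python 3.11.15 was used with matplotlib 3.10.9, scipy 1.17.1, pandas 2.3.3 and numpy 2.4.6.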

Additional observations from a re-analysis of the deposited data

Results flagged for a closer look

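The total H3K27me3 length of the cluster moved in opposite directions with doxorubicin in the 2 genotypes, but not in every part of it. It was 21.41 kb longer in KO doxorubicin than in KO mock cells, and WT doxorubicin minus WT mock was -11.04 kb. With peaks less than 3 kb apart joined these were 26.8 kb and -1.73 kb. Each effect rests on 1 library per condition, and whether the genotypes differ in it was not tested. The KO effect lay in the run that the KO mock list lacked, where KO doxorubicin peaks covered 26.93 kb. Between 60 and 80 kb the doxorubicin list was shorter than the mock list in both genotypes. It covered 7.12 kb against 12.6 kb in KO and 12.4 kb against 19.2 kb in WT cells. In the last 30 kb it was also shorter in both. In the lower 60 kb it was longer in KO cells, 58.55 against 55.29 kb, and shorter in WT cells, 56.64 against 56.97 kb. Over the whole lists the ratios of doxorubicin to mock were 0.990 in KO and 0.812 in WT cells.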

How the results depend on the processing

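All 8 differences in covered length kept their sign under the 4 alternatives that bear on them, a score of at least 100, equal numbers of top peaks, joining under 3 kb and whole peak lengths. In size 4 of them moved by more than 1.5 times. Joining gave -1.73 kb for H3K27me3 in WT doxorubicin minus WT mock, and for H3K4me3 -12.7 kb in KO doxorubicin minus WT doxorubicin and -16.5 kb in KO mock minus WT mock cells. A score of at least 100 gave -5.58 kb for H3K27me3 in KO doxorubicin minus WT doxorubicin cells. Judged by the binomial intervals, covered length itself moved in 2 of 32 cases. These were 115.2 kb in KO doxorubicin and 125.3 kb in WT doxorubicin cells for H3K27me3, both with peaks less than 3 kb apart joined. Joining also lengthened H3K4me3 without passing that rule. It went from 27.8 to 35.2 kb in WT mock and from 23.1 to 29.3 kb in WT doxorubicin cells. In KO cells it went from 17.3 to 18.7 kb with mock and from 14.9 to 16.7 kb with doxorubicin. Counts of gained and lost peaks depended more on the rule and moved in 15 of 40 cases. Joining left 2 H3K27me3 peaks gained or lost in KO doxorubicin against KO mock, 1 in KO doxorubicin against WT doxorubicin and 0 in KO mock against WT mock cells. For H3K4me3 it left 5 in KO doxorubicin against KO mock, 2 in KO doxorubicin against WT doxorubicin, 1 in WT doxorubicin against WT mock and 1 in KO mock against WT mock cells. Sharing within 1 kb gave 3 H3K27me3 peaks in KO doxorubicin against WT doxorubicin and 0 in KO mock against WT mock cells, and 5 and 3 H3K4me3 peaks in doxorubicin against mock in KO and WT cells. An overlap of 50% gave 4 H3K27me3 and 7 H3K4me3 peaks in KO mock against WT mock cells. A score of at least 100 gave 2 H3K27me3 peaks in each of WT doxorubicin against WT mock and KO mock against WT mock cells. The cause was not tested. No paired analysis was possible because each mark and condition had 1 library and the labels carry no replicate numbers. Read depth is unknown, so an absent peak was not listed at this depth and filter and is not shown to be absent.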

Other observations

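The H3K4me3 ratios of the cluster were also set beside a part of the compared windows, those with at least 10 kb of H3K27me3 in all 4 lists. This choice was made after the values were seen. The number of such windows differs between comparisons, and the cluster's own window is counted among them. For KO doxorubicin against KO mock the cluster's ratio of 0.859 was the lowest of 78 such windows, whose median was 1.06. For WT doxorubicin against WT mock 8 of 130 windows lay below its 0.831, with a median of 0.991. For KO doxorubicin against WT doxorubicin 17 of 118 lay below its 0.645, with a median of 0.848, and for KO mock against WT mock 6 of 112 lay below its 0.623, with a median of 0.793. The comparisons share libraries, and the values describe these lists.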
